A study of Mus musculus with 16 samples.

Results

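The miR-148 and miR-152 seed family is a set of mouse microRNAs (miRNAs) whose guide strands, miR-148a-3p, miR-148b-3p and miR-152-3p, share a seed, the bases that choose target mRNAs. Its members here are those guide strands (mmu-miR-148a-3p, mmu-miR-148b-3p and mmu-miR-152-3p in full) and the passenger strands mmu-miR-148a-5p and mmu-miR-148b-5p, 5 of the 941 miRNA names counted, taken by name from tables of raw reads. They were followed in 12 libraries of RAW264.7 cells, a mouse macrophage line from a virus-induced tumour in a male BALB/c mouse, and in 4 libraries of extracellular vesicles (EVs), the membrane-bound particles that cells release. All 4 cell groups, of 3 libraries each, were exposed to concanavalin A (Con A), a plant lectin that activates T cells, for 16 h (recipient concentration not given in the sources used here). For the 8 h before that, cells were kept in EV-free medium with PBS or with 6e9 particles per mL of serum Con A EVs, RAW saline EVs or RAW Con A EVs. Serum EVs were collected from female BALB/c mice of 8 to 9 weeks after an intravenous injection of saline or of Con A at 15 mg/kg. For the Con A mice this was 9 h after the injection. RAW EVs were collected from RAW264.7 cultures after 24 h with saline or with Con A at 25 µg/mL. Each EV preparation gave 1 library, so EV values have no replicate check and no test. Serum saline EVs were sequenced but no cells received them, so serum EVs as such and serum EVs after Con A cannot be told apart in the recipient cells.

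In animals the guide strand pairs with mRNAs through bases 2 to 8 and lowers their stability and translation, and members of a seed family therefore share many predicted targets. Known targets of this family include the DNA methyltransferase DNMT1, the LDL receptor (for miR-148a) and, in dendritic cells triggered through Toll-like receptors, the kinase subunit CaMKIIα. miR-148a is among the abundant miRNAs of liver. The passenger strand, cut from the other arm of the same hairpin, is usually degraded.

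The mature guide strands are printed here from RefSeq (GRCm38.p6), 5′ to 3′, with the seed in capitals, because they differ at so few bases that the whole contrast between members rests on telling them apart.
miR-148a-3p: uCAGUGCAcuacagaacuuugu
miR-148b-3p: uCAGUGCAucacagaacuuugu
miR-152-3p: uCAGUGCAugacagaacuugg
The seeds are identical, and all differences lie outside them. Counted from 1 at the 5′ end, miR-148b-3p differs from miR-148a-3p by C9U and U10C, and miR-152-3p differs from miR-148a-3p by C9U, U10G and U20G. From miR-148b-3p to miR-152-3p the substitutions are C10G and U20G, and miR-152-3p is also 1 base shorter (21 against 22). No other of the 1679 mature mouse names in the RefSeq table has the same bases 2 to 8. The mismatches that the authors' counting allowed were not given in the sources used here, so the extent to which reads of one guide strand were counted under another is unknown.

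The passenger strands, also from RefSeq, are shown with their own bases 2 to 8 in capitals because they carry the record of which hairpin was processed.
miR-148a-5p: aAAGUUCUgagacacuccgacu
miR-148b-5p: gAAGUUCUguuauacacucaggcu
In GENCODE M21, Mir148a on chromosome 6 lies in no other gene. Mir148b on chromosome 15 lies in an intron of Copz1 and Mir152 on chromosome 11 in an intron of Copz2, both on the strand of the host gene. Copz1 and Copz2 encode subunits of the COPI coat of transport vesicles.

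Depth was 174510 to 403332 miRNA reads in the cell libraries and 114791 to 334285 in those of EVs, and a count of 0 allows up to 7.44 to 17.2 CPM (reads relative to the library's sum of miRNA reads) in cells and 8.97 to 26.1 CPM in EVs, taking 3 reads as the floor. Intervals and floors cover counting error only. A list of 6 macrophage and myeloid miRNAs held 26.5 to 32.1% of the reads in every cell library. Most of that sum was a single miRNA, miR-21a-5p, which alone held 24.0 to 28.6%. By contrast miR-223-3p, a myeloid miRNA, averaged 28.9 ± 5.78 CPM (SD, n = 3) in PBS cells. Whether libraries of 1 group are separate cultures is not stated in the labels, and p-values therefore reflect library-to-library spread alone, which may be technical.

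Cells and EVs contained different members of the family. Cells contained almost exclusively miR-148b-3p, whereas every EV preparation contained almost exclusively miR-148a-3p. Of the reads of the guide strands in a library, miR-148b-3p made up 99.0 to 99.6% in PBS cells, 90.5 to 92.9% in cells given serum Con A EVs, 97.2 to 98.6% in cells given RAW saline EVs and 97.0 to 99.0% in RAW Con A EV recipients. In EVs miR-148a-3p made up 97.7% (95% Wilson interval 97.5 to 97.9) of them in serum saline, 99.6% (99.57 to 99.64) in serum Con A, 95.4% (94.4 to 96.2) in RAW saline and 97.5% (97.2 to 97.8) in RAW Con A preparations. Thus even the EVs collected from RAW264.7 cultures had mostly the member that the sequenced RAW264.7 cells hardly contained. The cultures that gave these EVs were not themselves sequenced. RAW EVs also held miRNAs of other cell types. miR-451a of erythrocytes had 107 reads in RAW saline and 72 in RAW Con A EVs, and a mean of 0 CPM in PBS cells. The source of the miR-148a-3p reads in RAW EVs was not tested. Cells and EVs were extracted with different kits, for cells and for serum or plasma, and the part of this in the contrast was not tested.

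**Figure D1:**
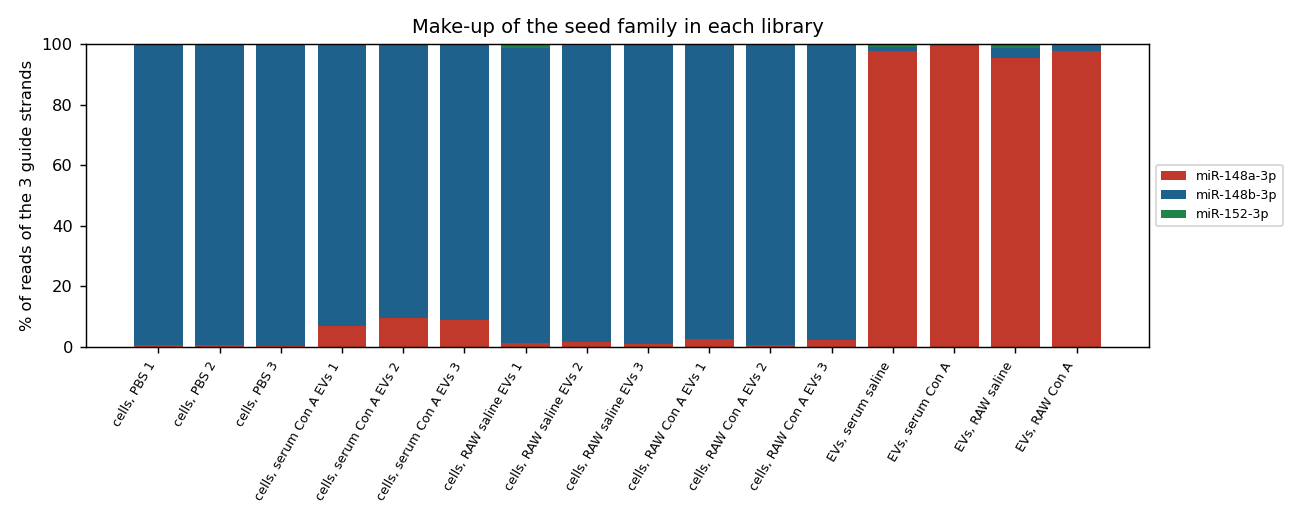
Share (%) of each guide strand among the reads of the 3 guide strands, in each of the 12 cell and 4 EV libraries, as stacked bars. miR-148a-3p fills 95.4 to 99.6% of the EV bars and 0.313 to 9.50% of the cell bars, most in the 3 libraries of cells given serum Con A EVs.

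miR-148a-3p, the liver-rich member, was a leading miRNA of the EVs. It had 15864 reads in serum saline EVs and 142434 in serum Con A EVs, which is 12.0% and 42.6% of all miRNA reads, and ranked 1 in both. It had 2190 reads in RAW saline EVs and 10396 in RAW Con A EVs, which is 1.91% and 7.71%, ranking 6 and 4. In the PBS cells it had 4, 8 and 3 reads. Its CPM in EVs was 6648 times the mean CPM of PBS cells for serum saline, 23594 times for serum Con A, 1056 times for RAW saline and 4268 times for RAW Con A EVs. Among the 190 to 196 miRNAs compared in this way, these were the highest ratio in 3 of the 4 preparations and the second highest in RAW Con A EVs. The denominators rest on 15 PBS reads in all, so these ratios are imprecise.

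miR-148b-3p, which differs from it at 2 bases, was lower in all 4 EV preparations than in PBS cells as CPM. It had 207, 365, 74 and 202 reads in serum saline, serum Con A, RAW saline and RAW Con A EVs, at 1567, 1092, 645 and 1498 CPM. These were 0.517, 0.360, 0.213 and 0.494 times the mean of 3031 CPM in PBS cells. The medians of this ratio over the miRNAs compared were 0.474, 0.0799, 0.615 and 0.512 in the same order. miR-148b-3p was thus near the median miRNA in serum saline and RAW Con A EVs (rank 93 of 196 and 100 of 190), above it in serum Con A EVs (46 of 191) and below it in RAW saline EVs (162 of 191). In serum Con A EVs its 365 reads were 0.255% of the guide strand reads, and how cleanly the counting separated it from miR-148a-3p there is not known.

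miR-152-3p was rare in cells and moderately abundant in EVs. It had 164, 199, 32 and 61 reads in the same order of EV preparations, at 1241, 595, 279 and 452 CPM, against 4 reads over the 3 PBS libraries. In EVs it was thus of the order of miR-148b-3p, although in PBS cells miR-148b-3p had 2536 reads. EV levels over PBS cells were 240, 115, 53.8 and 87.3 times for miR-152-3p, on those 4 PBS reads. It ranked 9 of 196 in serum saline, 4 of 191 in serum Con A and 6 of 190 in RAW Con A EVs. In RAW saline EVs it had too few reads for a rank. A high ratio of EVs to cells was thus shared by miR-148a-3p and miR-152-3p.

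**Figure D2:**
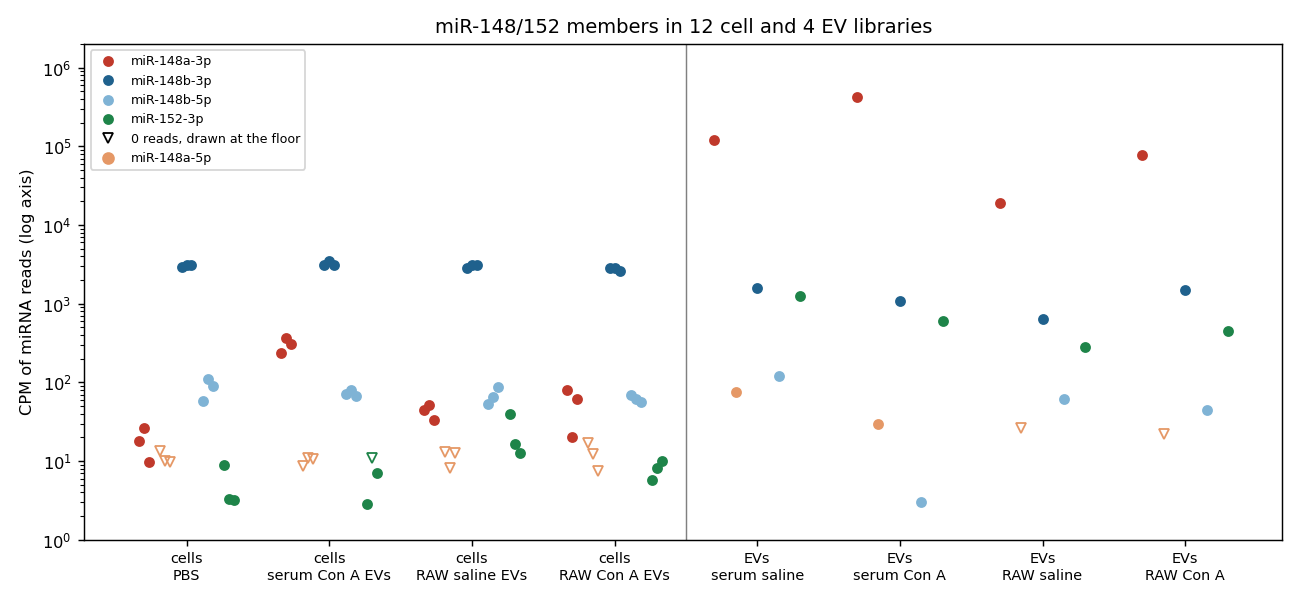
CPM of miRNA reads (log axis) of the 5 members in each library of the 4 cell groups (3 points each) and the 4 EV preparations (1 point each), with open triangles for 0 reads drawn at the 3-read floor. miR-148a-3p ranges from 9.71 CPM in a PBS library to 426086 CPM in serum Con A EVs, while miR-148b-3p stays between 645 and 3481 CPM.

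The passenger strands were scarce. miR-148a-5p had 0 reads in all 12 cell libraries, in RAW saline EVs and in RAW Con A EVs, and 10 reads in each serum EV library. With the floor of 3 reads per library, these 10 reads were at least 2.90-fold above RAW EVs in the saline pair and at least 1.35-fold in the Con A pair. The exact lower 95% limits, which also count the error of the 10 reads, were 1.95 and 0.904, so for the Con A pair no difference was detectable at this depth. miR-148b-5p had 12 to 33 reads per cell library, and the guide strand outnumbered it by 28.3 to 54.1 reads to 1. In EVs miR-148b-5p had 16, 1, 7 and 6 reads. miR-152-5p, the other strand of the Mir152 hairpin and no member by the rule, had at most 1 read in a cell library and 2 reads in each serum EV library.

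Serum Con A EVs held more miR-148a-3p, as a share of miRNA reads, than serum saline EVs. The level was 426086 against 120064 CPM, a ratio of 3.55 (exact 95% interval 3.49 to 3.61), the third highest among 124 miRNAs that had 50 or more reads in the pair. Of these, 4.03% were at least 2-fold higher and 81.5% at least 2-fold lower in serum Con A EVs, and their median ratio was 0.196. miR-148a-3p and miR-122-5p, the leading hepatocyte miRNA, together held 22.0% of reads in serum saline EVs and 81.8% in serum Con A EVs, so that all other miRNAs together went from 78.0% to 18.2%. Against that background the CPM of miR-148b-3p was 0.697 times (0.586 to 0.831) and that of miR-152-3p 0.480 times (0.388 to 0.593) the serum saline level. These directions depend on the scaling. With TMM scaling over the EV libraries the ratios became 16.6 for miR-148a-3p, 3.26 for miR-148b-3p and 2.24 for miR-152-3p, and in the authors' deposited table they were 566, 111 and 76.4. For miR-148b-3p the ratio also crossed 1 when the most abundant miRNA was taken out of each denominator (1.07).

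A comparison free of scaling is the read ratio of members within a library. miR-148a-3p outnumbered miR-148b-3p by 76.6 to 1 in serum saline EVs and by 390 to 1 in serum Con A EVs, a 5.09-fold change (95% interval 4.29 to 6.04). Against miR-152-3p its excess rose from 96.7 to 716, a 7.40-fold change (6.01 to 9.10). Between miR-148b-3p and miR-152-3p the ratio was 1.26 and 1.83, a change of 1.45 (1.11 to 1.90). miR-148a-3p thus gained on both relatives, whatever the scaling, and by more than the other guide strands moved against each other.

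RAW Con A EVs also held more miR-148a-3p than RAW saline EVs. The ratio was 4.04 (3.86 to 4.23), from 19078 to 77074 CPM, and ranked 14 among 134 miRNAs, of which 23.9% were at least 2-fold higher and whose median ratio was 0.898. miR-148b-3p was 2.32 times (1.77 to 3.07) and miR-152-3p 1.62 times (1.04 to 2.57) as abundant. The read ratio of miR-148a-3p to miR-148b-3p went from 29.6 to 51.5, a 1.74-fold change (1.33 to 2.28). miR-122-5p moved further in the same pair, from 0.353% of reads in RAW saline EVs to 20.8%, rank 1, in RAW Con A EVs, and its part in the ratio of miR-148a-3p was not tested. In this pair the other scalings tried, the authors' deposited table included, gave 3.86 to 4.04 for miR-148a-3p.

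As a share of miRNA reads, serum EVs had more miR-148a-3p than RAW EVs in both conditions. Without Con A the ratio of serum to RAW EVs was 6.29 (6.02 to 6.58) for miR-148a-3p, 2.43 (1.86 to 3.21) for miR-148b-3p and 4.45 (3.03 to 6.72) for miR-152-3p. Of the 144 miRNAs compared, 36.8% were at least 2-fold higher in the serum preparation. After Con A the ratios were 5.53 (5.42 to 5.64), 0.729 (0.612 to 0.870) and 1.32 (0.983 to 1.78), among 120 miRNAs of which 10.8% were at least 2-fold higher. The ratio of miR-148b-3p after Con A crossed 1 under TMM scaling (2.63) and when the most abundant miRNA was taken out (2.87). The authors' deposited normalized values come in separate tables for serum and RAW EVs, with unlike divisors, and were not used for these ratios. In the authors' deposited tables miR-148a-3p stood at 126 in serum saline and 168 in RAW saline EVs, the opposite order to CPM, and at 71217 in serum Con A and 650 in RAW Con A EVs.

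**Figure D3:**
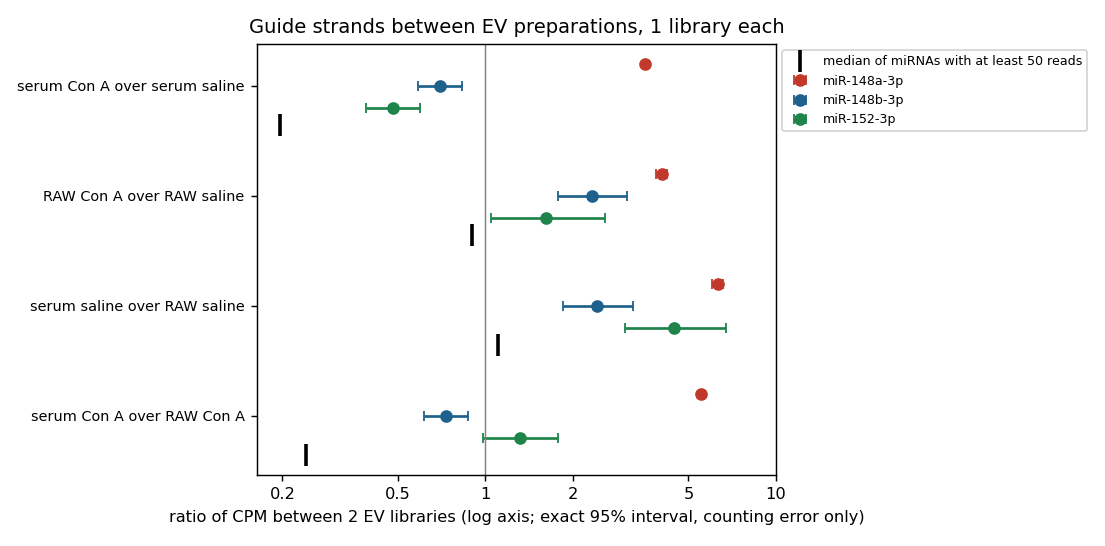
Ratio of CPM between pairs of EV libraries (log axis) for the 3 guide strands, with exact 95% intervals for counting error and a black tick for the median of miRNAs with at least 50 reads. miR-148a-3p lies between 3.55 and 6.29 in all 4 pairs, whereas miR-148b-3p and miR-152-3p lie below 1 for serum Con A over serum saline EVs.

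Of the members that passed the filter in recipient cells, miR-148a-3p was the one that rose, and it rose most in cells given serum Con A EVs. It had 83, 101 and 89 reads there against 4, 8 and 3 in PBS cells, every library being far above every PBS library. TMM scaling adjusts each library by a single factor and assumes that most miRNAs do not change. On that scale miR-148a-3p went from 17.6 ± 8.22 to 281 ± 58.6 CPM (mean ± SD, n = 3 and 3), a log2 change of 3.95 (SE 0.31, adjusted p = 2.70e-12, edgeR's quasi-likelihood test with Benjamini-Hochberg adjustment over 229 miRNAs). The fitted fold was 15.5 (95% interval 10.1 to 23.9), the second largest rise of all tested miRNAs. In this comparison 21.4% of the tested miRNAs were called at an adjusted p under 0.05, 7.86% as higher, and 36.2% had groups that did not overlap. In bulk RNA, more of a miRNA in each cell cannot be told apart from more cells that hold it.

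Cells given RAW Con A EVs had 14, 5 and 25 reads of miR-148a-3p. The lowest library, at 21.6 TMM-scaled CPM, lay within the PBS range of 9.42 to 25.9, so the groups overlapped. The mean was 57.7 ± 32.2 CPM, a log2 change against PBS of 1.69 (SE 0.46, adjusted p = 0.0143, edgeR's quasi-likelihood test). In this comparison 11.4% of the tested miRNAs were called, 6.11% as higher. In a fit of only these 2 groups the filter on low counts dropped miR-148a-3p, so the call relies on the fit of all 12 libraries. The call was lost without PBS library 3 (log2 change 1.34, adjusted p = 0.107), without RAW Con A EV library 1 (1.48, 0.0773) and without RAW Con A EV library 3 (1.42, 0.172), by the same test.

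Cells given RAW saline EVs had 10, 19 and 8 reads of miR-148a-3p, at 48.3, 52.4 and 34.9 TMM-scaled CPM, all above the PBS libraries. The mean was 45.2 ± 9.12 CPM, a log2 change of 1.38 (SE 0.48, adjusted p = 0.0480, edgeR's quasi-likelihood test), in a comparison where 14.0% of tested miRNAs were called, 7.42% as higher, and 31.4% did not overlap. This call stood at the threshold, and it too relies on the fit of all 12 libraries, because a fit of only these 2 groups dropped miR-148a-3p at the filter. It was lost with library size alone (1.28, adjusted p = 0.0683), with upper quartile scaling (1.30, 0.0502) and without PBS library 1 (1.38, 0.0762) or 3 (1.04, 0.207). Leaving out the RAW saline EV recipients' library 1 (1.39, 0.0887), 2 (1.22, 0.208) or 3 (1.54, 0.0658) also ended it. All 3 of these comparisons share the PBS libraries, in which miR-148a-3p had only 15 reads.

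Between EV recipients, the level after serum Con A EVs was above that after either RAW preparation, with no overlap of libraries (46.7% of tested miRNAs did not overlap between cells given serum Con A and RAW Con A EVs, and 48.0% between those given serum Con A and RAW saline EVs). Against cells given RAW Con A EVs the log2 difference was 2.27 (SE 0.24, adjusted p = 3.66e-09, edgeR's quasi-likelihood test), where 34.9% of miRNAs were called. Against cells given RAW saline EVs it was 2.57 (SE 0.25, adjusted p = 2.72e-10), where 41.5% were called. Cells given RAW Con A EVs and cells given RAW saline EVs differed by 0.31 (95% interval −0.45 to 1.06, adjusted p = 0.814), with overlapping libraries, where 3.49% were called. The order of means was thus serum Con A EVs, RAW Con A EVs, RAW saline EVs and PBS, with no difference beyond the spread between the RAW preparations.

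miR-148b-3p, the cells' own abundant member, showed no change in any group. Its TMM-scaled CPM was 2815, 3019 and 2994 in PBS cells, 2872, 3175 and 2910 after serum Con A EVs, 3136, 3158 and 3287 after RAW saline EVs and 2935, 2980 and 2891 after RAW Con A EVs. Only the libraries of cells given RAW saline EVs lay above both the PBS libraries and those of cells given RAW Con A EVs, a separation seen for 31.4% and 16.2% of tested miRNAs. The log2 change against PBS was 0.02 (95% interval −0.11 to 0.14, adjusted p = 0.868, edgeR's quasi-likelihood test) after serum Con A EVs. It was −0.01 (−0.14 to 0.12, adjusted p = 0.960) after RAW Con A EVs and 0.12 (−0.01 to 0.24, adjusted p = 0.214) after RAW saline EVs. None of the 6 comparisons between groups passed the threshold, the remaining differences being −0.12, 0.02 and −0.10, although with library size alone the difference of serum Con A EV from RAW Con A EV recipients, 0.24 on the log2 scale, did (adjusted p = 0.00483). That scaling moved the median of all tested miRNAs in this comparison to 0.23.

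miR-148b-5p, its passenger strand, stayed at a low level. It averaged 83.7 ± 25.4 CPM in PBS cells, 66.8 ± 5.26 after serum Con A EVs, 71.9 ± 17.6 after RAW saline EVs and 66.3 ± 4.59 after RAW Con A EVs. Its log2 changes against PBS, −0.36, −0.27 and −0.40 in that order, did not pass the threshold (adjusted p = 0.312, 0.525 and 0.423, edgeR's quasi-likelihood test), and all groups overlapped with PBS.

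miR-152-3p had too few reads in cells for the filter on low counts and was not among the 229 tested. Its reads were 2, 1 and 1 in PBS cells, 1, 0 and 2 after serum Con A EVs, 9, 6 and 3 after RAW saline EVs and 1, 2 and 4 after RAW Con A EVs. The cells given RAW saline EVs were the highest group, and no library of theirs overlapped with PBS, as for 12.5% of the 781 miRNAs with no filter. In a fit without the filter, over the same miRNAs, the log2 change against PBS was 2.17 after RAW saline EVs (adjusted p = 0.0558, edgeR's quasi-likelihood test; 3.46% called). In that fit the recipients of serum Con A EVs differed from those of RAW saline EVs by −2.74 (adjusted p = 0.00302; 11.1% called), on counts of 3 against 18 reads. The fitted changes against PBS were −0.57 after serum Con A EVs and 0.88 after RAW Con A EVs (adjusted p = 0.893 and 0.749). RAW saline EVs themselves held the least miR-152-3p of the 4 preparations as CPM.

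**Figure D4:**
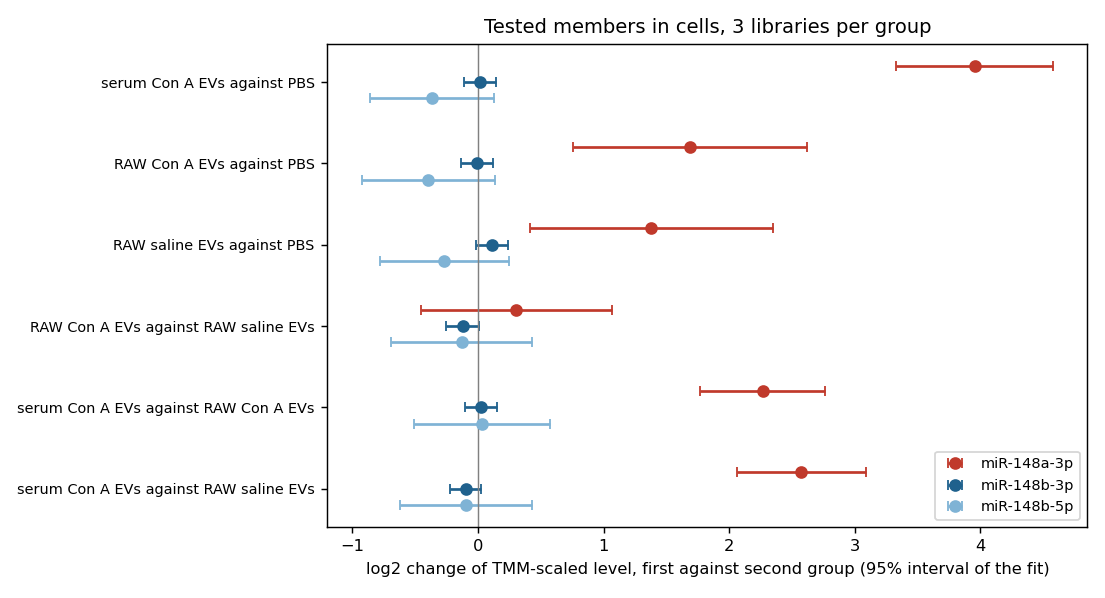
Log2 change of the TMM-scaled level of miR-148a-3p, miR-148b-3p and miR-148b-5p in the 6 comparisons of cell groups (3 libraries each), with 95% intervals of the edgeR fit. The intervals of miR-148a-3p exclude 0 in 5 comparisons, with 3.95 for serum Con A EVs against PBS, and those of miR-148b-3p include 0 in all 6.

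The divergence of miR-148a-3p from its relatives was also tested within libraries, where no scaling enters. miR-148b-3p outnumbered miR-148a-3p by 162, 117 and 318 reads to 1 in PBS cells and by 13.2, 9.52 and 9.97 after serum Con A EVs. After RAW saline EVs it did so by 64.9, 60.3 and 94.1, and after RAW Con A EVs by 35.2, 138 and 42.5. This ratio differed across the 4 groups (p = 0.00227, adjusted over 4 ratios 0.00909, exact permutation test of log2 ratios with 0.5 reads added, 369600 assignments). The ratio of miR-148a-3p to miR-152-3p also differed (p = 0.00597, adjusted 0.0119, exact permutation), as did that of miR-148b-3p to miR-152-3p (p = 0.0197, adjusted 0.0263, exact permutation), which was lowest after RAW saline EVs. The last of these missed the threshold without library 1 of the serum Con A EV (adjusted p = 0.0559), RAW saline EV (0.128) or RAW Con A EV recipients (0.0519), and without library 2 of the last (0.0529), by the same exact permutation test. The ratio of miR-148b-5p to miR-148b-3p did not pass the threshold (p = 0.445, exact permutation). Against PBS, miR-148a-3p over miR-148b-3p was 3.92 higher on the log2 scale after serum Con A EVs, a 15.2-fold difference, 1.25 higher after RAW saline EVs and 1.53 higher after RAW Con A EVs. With 3 libraries against 3 the smallest 2-sided exact permutation p is 0.1, which the first 2 of these reached, so none could pass 0.05. For miR-148a-3p over miR-152-3p the log2 differences from PBS were 4.68 after serum Con A EVs, −0.52 after RAW saline EVs and 0.78 after RAW Con A EVs. Both groups given RAW EVs overlapped with PBS in this ratio, which rests on few miR-152-3p reads. A divergence from miR-152-3p was thus seen only after serum Con A EVs. The ratio with miR-148a-5p was not computed because that strand had no reads in cells.

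Set beside the EVs given, the gain of miR-148a-3p in cells was small. The mean gain over PBS was 263 CPM after serum Con A EVs, which is 0.0618% of the CPM in those EVs. It was 40.1 CPM or 0.0520% for RAW Con A EVs and 27.6 CPM or 0.145% for RAW saline EVs. For miR-122-5p the gain after serum Con A EVs was 177 CPM, or 0.0452% of its CPM in the EVs. After RAW Con A EVs it was 52.6 CPM, or 0.0253%, and after RAW saline EVs 17.7 CPM, or 0.502%, where its change did not pass the threshold (log2 0.86, adjusted p = 0.202, edgeR's quasi-likelihood test). For other miRNAs after serum Con A EVs this percentage differed widely. It was 0.881% for miR-451a, 5.81% for miR-126a-3p and 79.6% for let-7i-5p. Levels that fell gave −2.03% for miR-192-5p, −9.36% for miR-194-5p and −583% for miR-21a-5p. Levels in cells are TMM-scaled CPM here and those in EVs plain CPM. How much EV RNA each cell library held was not measured, so these percentages compare shares of libraries and not amounts of RNA.

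**Figure D5:**
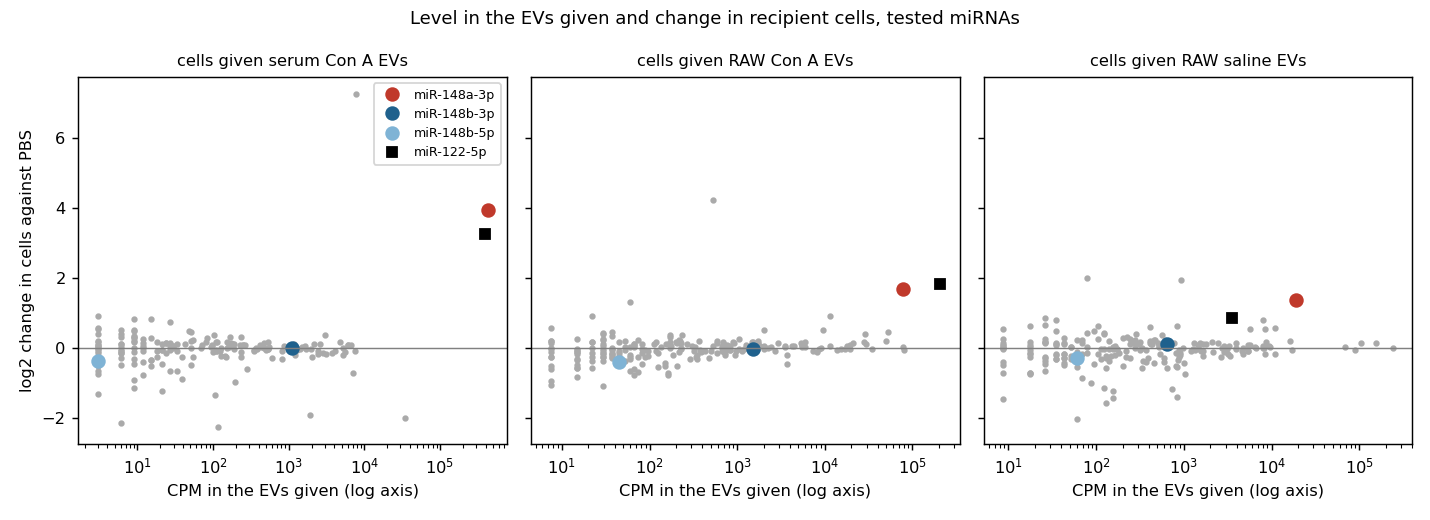
CPM in the EVs given (log axis) against the log2 change in recipient cells relative to PBS, for tested miRNAs with reads in those EVs (185, 215 and 216 of 229, from left to right). miR-148a-3p and miR-122-5p lie at the upper right for serum Con A and RAW Con A EVs, and miR-148b-3p and miR-148b-5p lie near 0 or below in all 3 panels.

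Markers of some other cell types differed between the same groups. miR-122-5p, the hepatocyte miRNA, had 8.99 to 25.9 CPM in PBS cells, 185 to 266 after serum Con A EVs, 22.0 to 49.9 after RAW saline EVs and 49.0 to 80.2 after RAW Con A EVs, while its partner strand miR-122-3p had 0 reads in every cell library. A list of 7 erythrocyte miRNAs summed to 0 to 3.31 CPM in PBS cells, 105 to 144 after serum Con A EVs, 4.39 to 13.7 after RAW saline EVs and 7.44 to 24.5 after RAW Con A EVs. In PBS cells 6 to 7 of its members were at 0, and after serum Con A EVs 2 to 3 were. In the EVs the erythrocyte list held 15.1% of reads in serum saline, 2.60% in serum Con A, 0.352% in RAW saline and 0.236% in RAW Con A preparations. That list includes both miR-486a-5p and miR-486b-5p, with 6083 reads each in serum saline EVs and 3045 and 3036 in serum Con A EVs. The same reads may have been counted under both names, which would raise these sums. A list of 2 endothelial and platelet miRNAs, none at 0, summed to 619 to 674 CPM in PBS cells, 843 to 905 after serum Con A EVs, 458 to 543 after RAW saline EVs and 596 to 607 after RAW Con A EVs. The lists of 4 lymphocyte and 6 epithelial and islet miRNAs overlapped with PBS in every group. Lymphocyte sums were 29.1 to 53.0 CPM in PBS cells and 31.6 to 57.9 after serum Con A EVs, and epithelial and islet sums were 132.8 to 152.2 and 117.9 to 184.6. The part of these lists in the rise of miR-148a-3p was not tested. The ratio of miR-148a-3p to miR-122-5p was 1.21 in serum saline EVs and 1.09 (95% interval 1.08 to 1.10) in serum Con A EVs, and 1.28, 1.98 and 1.17 in the cells that received the latter. It was 5.41 in RAW saline EVs and 0.370 in RAW Con A EVs. In the cells given those it was 2.00, 1.58 and 0.667, and 1.00, 0.417 and 0.862, on few reads.

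Over the 12 cell libraries, the tested miRNAs whose log2 level was most like that of miR-148a-3p were miR-122-5p (Pearson r = 0.89), miR-451a of erythrocytes (0.87), miR-301b-5p (0.85), miR-106b-3p (0.83) and miR-17-5p (0.81). miR-148b-3p was most like miR-101b-3p (0.67), miR-421-3p (0.67), miR-181a-5p (0.60), miR-1249-3p (0.60) and miR-690 (0.59), and its correlation with miR-148a-3p was −0.01. These are descriptions over n = 12 libraries that share their groups. Those listed for miR-148a-3p all had their highest mean after serum Con A EVs. For miR-451a it was 67.2 CPM there against 0 in PBS cells. Their correlations are therefore no evidence separate from that difference between groups.

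Of the other liver and gut miRNAs, miR-122-5p rose where miR-148a-3p rose most, and miR-192-5p and miR-194-5p fell there. Of 6 listed, 3 were tested. After serum Con A EVs, where 7.86% of all tested miRNAs rose and 13.5% fell, miR-122-5p had a log2 change of 3.27 (adjusted p = 6.99e-11), and miR-192-5p and miR-194-5p fell (−1.99, adjusted p = 3.21e-12, and −1.91, adjusted p = 1.13e-08, edgeR's quasi-likelihood test), although miR-192-5p was the third most abundant miRNA of the EVs given. The median of the list was −1.91, against 0.01 over all tested miRNAs. After RAW Con A EVs miR-122-5p alone rose (1.83, adjusted p = 0.00161), and after RAW saline EVs miR-194-5p alone did (0.50, adjusted p = 0.0347).

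miRNAs known to act on Toll-like receptor signalling, in which targets of the family have been placed, changed in both directions. Of 11 listed, 9 were tested. After serum Con A EVs miR-9-5p rose (log2 change 0.26, adjusted p = 0.00193) and 3 fell, against 7.86% and 13.5% of all tested miRNAs, most of all miR-155-5p, which inflammatory signals induce (−2.26, adjusted p = 2.54e-18, edgeR's quasi-likelihood test). The list median of 0.01 equalled that of all tested miRNAs to 2 decimals. After RAW Con A EVs 2 rose and 0 fell, against 6.11% and 5.24% of all tested miRNAs, led by miR-146a-5p, a brake on that signalling (0.92, adjusted p = 1.27e-12). After RAW saline EVs 2 rose and 0 fell, against 7.42% and 6.55%, with miR-146a-5p at 0.82 (adjusted p = 2.40e-11) and miR-155-5p at 0.45 (adjusted p = 1.00e-04, same test).

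miRNAs abundant in the EVs given included a larger share that rose in recipient cells than tested miRNAs in general, though most of them did not rise. For serum Con A EVs a larger share also fell. Of the 20 most abundant miRNAs of serum Con A EVs, 18 were tested in recipient cells, of which 5 rose (27.8%, against 7.86% of all tested) and 4 fell (22.2%, against 13.5%), with a median log2 change of −0.03. Of the 20 leading miRNAs of RAW saline EVs 5 rose (25.0%, against 7.42%) and 0 fell, and of those of RAW Con A EVs 8 rose (40.0%, against 6.11%) and 0 fell, with medians of 0.06 and 0.11. These shares are descriptions with no test. The leading miRNAs were not matched to the tested miRNAs for level in cells, and the power to call a change depends on that level. Those of serum Con A EVs include both miR-486a-5p and miR-486b-5p, which may be the same reads.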

How the data were processed

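Small RNA from 12 RAW264.7 cell and 4 EV samples was sequenced as 51 bp single reads, per the labels. The authors deposited raw counts per mature miRNA name (941 names), which were used for all levels and tests. They also deposited normalized signal values for EVs, in which each raw count was divided by 1 number per library (126, 2, 13 and 16 for serum saline, serum Con A, RAW saline and RAW Con A EVs), whose meaning is not stated. The submitters' processing notes name edgeR with no version. The aligner, the annotation and the build were not given in the sources used here. EV RNA received a plant spike-in miRNA, per the labels, with 0 entries in the tables used.

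Cell counts were filtered with filterByExpr (229 miRNAs kept), scaled by TMM and fitted in 1 quasi-likelihood model of 12 libraries with edgeR 4.0.16 in R 4.3.3, tested on simulated data first, with Benjamini-Hochberg adjustment per comparison and a threshold of 0.05. Of the 5 members, miR-148a-3p, miR-148b-3p and miR-148b-5p passed the filter, which miR-148a-5p and miR-152-3p did not. DESeq2 1.42.0, limma 3.58.1, other scalings, no filter, 2-group fits, a replicate block and leaving out each library were alternatives. Within-library ratios used an exact permutation test (scipy 1.17.1). EV ratios of CPM have exact Poisson 95% intervals, ratios of ratios a normal interval on the log scale, and no p-values. The groups came from sample titles.

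The guide strands were named in every EV comparison, and the members that passed the filter in every comparison of cells with PBS. Named beside them were the 5 miRNAs most correlated with a guide strand that passed the filter (log2 TMM CPM, prior count 2). Of each list, at most 3 members with the largest changes were named. Members and lists were chosen with earlier results of these data known.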

Additional observations from a re-analysis of the deposited data

Results flagged for a closer look

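Con A went with opposite directions of 2 guide strands in serum and in RAW EVs when levels were taken as CPM. miR-148b-3p was at 0.697 times its saline level in serum EVs and at 2.32 times in RAW EVs. miR-152-3p was at 0.480 times in serum EVs and at 1.62 times in RAW EVs. With 1 library per preparation the difference was not tested, and TMM scaling turned the serum ratios to 3.26 and 2.24, above 1 as in RAW EVs. No group had 4 or more libraries, so none was screened for a library far from the others.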

How the results depend on the processing

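In PBS cells miR-148a-3p rests on 15 reads, and each EV value on 1 library. Its rise after serum Con A EVs passed the threshold in all 8 other fits (log2 change 3.59 to 4.03) and without any 1 library (3.61 to 4.39), as did its differences between recipients of serum and RAW EVs. After RAW Con A EVs it passed in all 7 other fits that gave a value, with 1.34 to 2.13 without 1 library. After RAW saline EVs it missed with upper quartile scaling (1.30) and library size alone (1.28), and without 1 library ran from 1.04 to 1.84. A fit of only the groups compared gave no value for either, because its filter dropped miR-148a-3p. The cause of these losses was not tested.

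The tested members near 0 changed sign without passing the threshold. With upper quartile scaling miR-148b-3p was at −0.044 after serum Con A EVs against PBS, and with library size alone miR-148b-3p and miR-148b-5p were at 0.090 and 0.083 in serum Con A EV against RAW saline EV recipients. Without 1 library miR-148b-3p ran from −0.028 to 0.049 (serum Con A EVs against PBS), −0.048 to 0.012 (RAW Con A EVs against PBS) and −0.012 to 0.056 (serum against RAW Con A EVs). miR-148b-5p ran from −0.26 to 0.023 (RAW Con A against RAW saline EVs), −0.017 to 0.079 (serum Con A against RAW Con A EVs) and −0.25 to 0.039 (serum Con A against RAW saline EVs). The adjusted p of the miR-148b-3p to miR-152-3p ratio ran from 0.00494 to 0.128 without 1 library (exact permutation).

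EV ratios moved with the denominator. Without the most abundant miRNA of each library, serum Con A over serum saline gave 5.44, 1.07 and 0.735 for miR-148a-3p, miR-148b-3p and miR-152-3p, serum Con A over RAW Con A gave 21.7, 2.87 and 5.17, and serum over RAW saline gave 5.81 for miR-148a-3p. Without erythrocyte miRNAs miR-148a-3p was at 3.09, 5.66 and 7.39 in that order of pairs. With TMM scaling the first pair gave 16.6, 3.26 and 2.24, the second 19.9, 2.63 and 4.75, and the third 4.85 for miR-148a-3p. The authors' deposited table gave 566, 111 and 76.4 for the serum pair, 3.94 for miR-148b-5p there, and 3.86 for miR-148a-3p in the RAW pair. With all 5 members in the denominator the mean share of miR-148b-3p was 96.5% in PBS cells, 89.5% after serum Con A EVs, 95.8% after RAW saline EVs and 95.7% after RAW Con A EVs.

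No pairing of libraries by replicate number was seen. Deviations of same-numbered libraries correlated at −0.21 to 0.20 over 18 pairs, and 1 of 12 libraries correlated best with its own number. With 3 libraries per group this check cannot show that none were prepared together. With the replicate as a block, miR-148a-3p changed by 3.98, 1.69 and 1.37 after serum Con A, RAW Con A and RAW saline EVs, and the calls over all miRNAs were 50, 23 and 34 in place of 49, 26 and 32. No call on a member changed under the block. Calls after RAW Con A EVs numbered 16 without the filter and 10 to 17 without 1 library, those after RAW saline EVs 51 with library size alone, and those between the RAW EV recipients 1 to 8 without 1 library and 3 to 9 in other fits, against 8.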
